A study of Sus scrofa with 9 samples.

Results

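The enzymes described here are 56 genes, most of them of amino acid metabolism, that were listed by name as enzymes of the kidney tubule. They, their role groups and the marker lists below were chosen with earlier results of these data known, so counts over them are descriptive. A gene counted as measured when the array's annotation gave a probe set that single symbol, and where several probe sets carried it the one with the highest mean over all 9 arrays was taken. This left 38 measured enzymes of 56, among 12362 genes with a named probe set. The other 18 were not analysed here: AGXT2, HAO1, PRODH2, PIPOX, GLDC, AMT, GCSH, SHMT1, KMO, QPRT, HGD, DDC, PRODH, CBS, BCAT1, MCCC1, ACY1 and ACY3.

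The samples were kidney biopsies from 9 male Yorkshire pigs of 30 kg, with 1 Affymetrix array per animal. Every graft was a right kidney that went through 30 min of warm ischemia (no blood supply at body temperature) and a flush before it was returned to its own pig, whose left kidney was taken out at that time, so the graft was the only kidney left. NEVKP kidneys (n = 3) spent 8 h on Normothermic Ex-Vivo Kidney Perfusion before reimplantation, that is, on a warm circuit outside the animal. SCS kidneys (n = 3) spent 8 h in static cold storage, chilled and without flow, and No Storage kidneys (n = 3) went back directly. All biopsies date from day 3 after surgery, and all groups share the warm ischemia and the transplantation, so none of them shows an unoperated kidney. An autotransplant also has no foreign donor tissue. The values are log2 intensities per probe set as the authors deposited them, and a difference of 1 on this scale is a doubling.

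The proximal tubule takes filtered amino acids back from the urine and also processes them. It makes arginine from citrulline and guanidinoacetate, the precursor of creatine, from arginine and glycine. It releases ammonia from glutamine and glutamate to carry acid into the urine, and it breaks down hydroxyproline, D-amino acids, branched-chain amino acids and tryptophan in mitochondria, peroxisomes and cytosol. Many of these enzymes are otherwise abundant mainly in liver.

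Array medians ran from 5.705 to 5.797, and the correlation between any pair of arrays over the probe sets was 0.974 to 0.991. Of 29 proximal tubule markers that are not among the enzymes, 20 were measured and none was dim, that is, with a mean in the lowest 25% of probe sets (under 3.92). Their means over all arrays ran from 4.87 for SLC34A1, a phosphate transporter, to 12.31 for SLC5A12, a lactate transporter, and LRP2 (megalin) and CUBN (cubilin) had 12.14 and 11.46. Of 7 measured hepatocyte markers ALB (albumin) and FGA were dim, at 3.37 and 2.97, and the other 5 were not, with means of 4.82 for APOA2 to 7.84 for APOA1. The brightest enzyme probe sets were GLUD1, GATM, GLUL, BHMT2, DAO, ASPA, ASS1 and MIOX, with means of 11.90, 11.43, 11.00, 10.88, 10.87, 10.70, 10.49 and 10.37, and brightness of different probe sets does not rank their RNA amounts. Dim among the enzymes were TDO2 (2.22) and OTC (2.80), both abundant in liver. In a biopsy, fewer tubule cells and less enzyme RNA per cell cannot be told apart.

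SCS against No Storage addresses what 8 h of cold storage adds, by day 3, to the injury that all grafts share. Enzyme transcripts lay mostly lower in SCS, with a median log2 difference of -0.80 over the 38 enzymes, against 0.00020 over all named genes. The difference was negative for 34 of 38 enzymes, against 48.3% of all probe sets, and positive for 4, against 51.7%. It was largest for DDO (-1.66), BHMT (-1.55), CDO1 (-1.36), MIOX (-1.33), HPD (-1.26), HAO2 (-1.26), GATM (-1.26) and BHMT2 (-1.21). Without No Storage replicate 2 it was -0.09 for CDO1 and -0.76 for HPD, and HPD had -0.71 without SCS replicate 2. Positive values were 0.35 for ARG2, which had 0.85 without No Storage replicate 2, 0.14 for BCAT2, 0.12 for OTC and 0.11 for TDO2.

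After adjustment over all 19124 probe sets, 0 of 38 enzymes passed in limma, against 0.0941% of all probe sets lower and 0.068% higher, and the smallest adjusted p was 0.0646, shared by MIOX, BHMT2, AGMAT and HIBADH. At an unadjusted p under 0.05, 26 enzymes were lower and 0 higher, against 7.79% and 7.75% of all probe sets. Counts at an unadjusted p and without overlap were chosen after seeing the data. With the dimmest 25% left out, the lower share of all probe sets was 9.54%. For 25 enzymes all 3 SCS arrays lay under all 3 No Storage arrays, against 11.6% of probe sets, and for 0 enzymes above them, against 11.3%. The adjusted count was 8 without NEVKP replicate 2, an array that enters only the shared estimate of the spread, and 2 without SCS replicate 3. The median was -0.55 without SCS replicate 2. The share of all probe sets was not counted with arrays left out, here or below, so these counts have no background beside them.

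NEVKP against No Storage addresses the same for 8 h of warm perfusion. Enzyme transcripts again lay mostly lower, with a median of -0.52 over the 38 enzymes and -0.0070 over all named genes. The difference was negative for 36 of 38 enzymes, against 52.3% of all probe sets, and positive for 2, against 47.7%. The lowest values belonged to DDO (-1.25), ACMSD (-1.22), HPD (-1.21), DPYS (-1.21), BHMT (-1.10) and HAO2 (-0.95), and the positive ones were OAT (0.10) and BCAT2 (0.08). Without NEVKP replicate 2 the values were -0.84 for DDO, -0.74 for ACMSD, -0.44 for DPYS, -0.43 for BHMT, -0.63 for HAO2 and -0.13 for BCAT2, and without No Storage replicate 2 HPD had -0.70. The SCS and NEVKP comparisons use the same No Storage arrays and are not independent of each other.

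In limma 0 of 38 enzymes passed for NEVKP against No Storage, as did 0% of all probe sets in either direction, and the smallest adjusted p was 0.331, for BCKDHB. At an unadjusted p under 0.05, 17 enzymes were lower and 0 higher, against 4.4% and 4.67% of all probe sets, and the lower share was 4.69% with the dimmest left out. All NEVKP arrays lay under all No Storage arrays for 18 enzymes, against 8.57% of probe sets, and above them for 0, against 7.94%. Without NEVKP replicate 2, the count at an unadjusted p under 0.05 was 9.

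**Figure D1:**
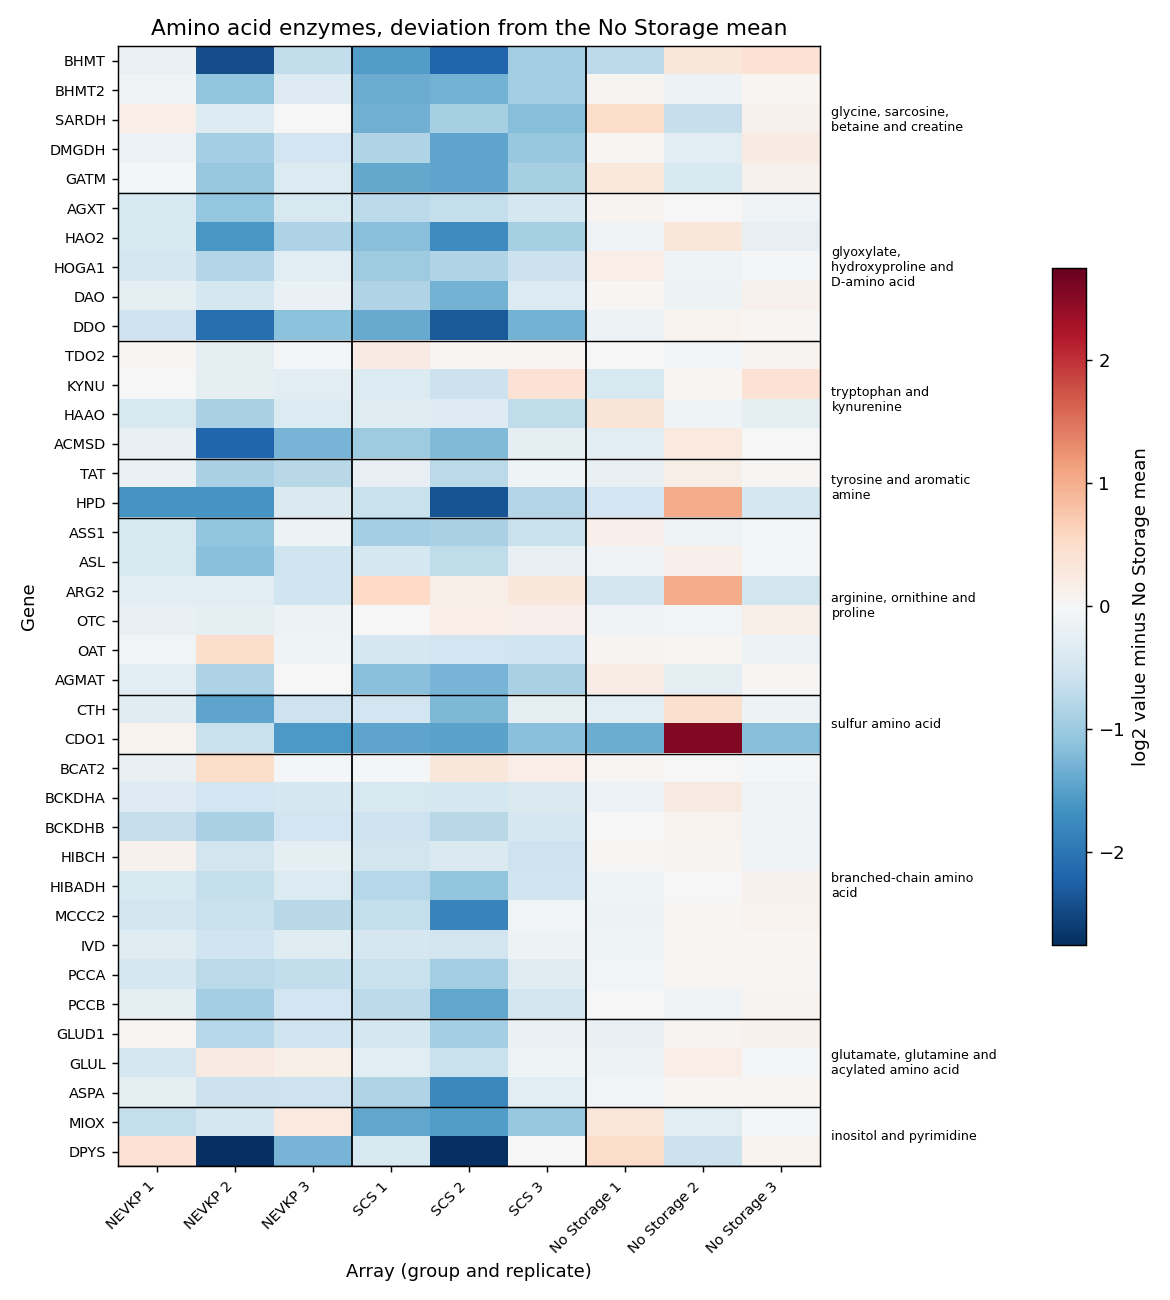
Deviation of each of the 38 enzymes (rows, grouped by role) from its No Storage mean, in log2 units, for each array (columns: NEVKP, SCS and No Storage replicates 1 to 3). Blue is lower and red higher than the No Storage mean. The columns of NEVKP replicate 2 and SCS replicate 2 are the bluest, and CDO1 in No Storage replicate 2 stands 2.54 above its mean.

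Enzymes that handle betaine, sarcosine, glycine and the creatine precursor were 5 of 10 measured, and their medians were -1.21 in SCS and -0.51 in NEVKP. In SCS 5 of 5 lay without overlap under No Storage, against 11.6% of all probe sets, and in NEVKP 0 of 5, against 8.57%. BHMT2 (NCBI Gene ID 100523776), a methyltransferase that turns homocysteine into methionine, had log2 values of 11.35, 10.37 and 11.10 in NEVKP, 10.10, 10.14 and 10.50 in SCS, and 11.54, 11.31 and 11.51 in No Storage. The SCS arrays lay under those of No Storage, and NEVKP overlapped both groups at its lower and upper ends. Its difference was -1.21 for SCS minus No Storage (SE 0.23, limma adjusted p = 0.0646), a 2.31-fold lower level, and -0.51 for NEVKP minus No Storage (limma adjusted p = 0.549).

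DMGDH (NCBI Gene ID 100525563), the mitochondrial enzyme that makes sarcosine from dimethylglycine, had 5.51, 4.73 and 5.14 in NEVKP, 4.85, 4.23 and 4.65 in SCS, and 5.73, 5.39 and 5.91 in No Storage. SCS was again clear of No Storage, by -1.10 (SE 0.23, limma adjusted p = 0.0748), and NEVKP differed from No Storage by -0.55 (limma adjusted p = 0.531). SARDH, which makes glycine from sarcosine, averaged 7.34 ± 0.28 in NEVKP, 6.28 ± 0.21 in SCS and 7.41 ± 0.58 in No Storage (SD, n = 3). GATM, the amidinotransferase of creatine synthesis, averaged 11.52 ± 0.50 in NEVKP, 10.76 ± 0.30 in SCS and 12.02 ± 0.37 in No Storage (SD, n = 3). BHMT, which takes the methyl group for homocysteine from betaine, averaged 9.23 ± 1.18 in NEVKP, 8.77 ± 0.61 in SCS and 10.33 ± 0.62 in No Storage (SD, n = 3). SARDH thus differed from No Storage by -1.13 in SCS and -0.07 in NEVKP, GATM by -1.26 and -0.49, and BHMT by -1.55 and -1.10.

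Enzymes of glyoxylate, hydroxyproline and D-amino acids were 5 of 8 measured, and their medians were -0.83 in SCS and -0.64 in NEVKP. In each stored group 5 of 5 lay without overlap under No Storage, against 11.6% of all probe sets in SCS and 8.57% in NEVKP. Other role groups had fewer such enzymes. Tryptophan enzymes had 1 of 4 in each stored group, and the glutamate and glutamine group 1 of 3. In SCS and NEVKP, the arginine group had 4 and 3 of 6, and tyrosine enzymes 1 and 0 of 2. Sulfur amino acid enzymes had 0 and 1 of 2, and the inositol and pyrimidine group 1 and 0 of 2. The branched-chain counts are given below. DDO (NCBI Gene ID 100037287), the D-aspartate oxidase of peroxisomes, had 8.94, 7.44 and 8.39 in NEVKP, 8.12, 7.20 and 8.21 in SCS, and 9.36, 9.61 and 9.54 in No Storage. Every stored kidney was under every No Storage kidney, by means of -1.66 in SCS (SE 0.36, limma adjusted p = 0.0821) and -1.25 in NEVKP (SE 0.36, limma adjusted p = 0.407). A second DDO probe set gave -1.33 and -1.32.

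HOGA1 (NCBI Gene ID 100153961), the aldolase of the last step of hydroxyproline breakdown, had 8.33, 7.99 and 8.50 in NEVKP, 7.82, 7.97 and 8.20 in SCS, and 8.98, 8.68 and 8.74 in No Storage. Neither stored group reached the lowest No Storage array, with differences of -0.80 in SCS (limma adjusted p = 0.0748) and -0.52 in NEVKP (limma adjusted p = 0.439). AGXT, the aminotransferase that turns glyoxylate into glycine, differed by -0.62 in SCS and -0.64 in NEVKP. HAO2, a peroxisomal oxidase of hydroxy acids, differed by -1.26 and -0.95, and DAO, the D-amino acid oxidase, by -0.83 and -0.30.

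Tryptophan enzymes were 4 of 6 measured, and their medians were -0.33 in SCS and -0.38 in NEVKP. HAAO (NCBI Gene ID 100514283), the dioxygenase that makes the precursor of quinolinic acid and NAD, had 7.29, 6.86 and 7.36 in NEVKP, 7.40, 7.38 and 7.03 in SCS, and 8.10, 7.63 and 7.49 in No Storage. Both stored groups were under all No Storage arrays, though the lowest No Storage value lay close to the highest of each. The differences were -0.47 in SCS (limma adjusted p = 0.297) and -0.57 in NEVKP (limma adjusted p = 0.456).

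ACMSD (NCBI Gene ID 100154768), the decarboxylase that diverts that precursor away from NAD, had 8.64, 6.67 and 7.58 in NEVKP, 7.88, 7.64 and 8.57 in SCS, and 8.56, 9.12 and 8.86 in No Storage. One array of each stored group reached into the No Storage range. The spread was wide in NEVKP, and the differences were -0.82 in SCS (limma adjusted p = 0.392) and -1.22 in NEVKP (SE 0.43, limma adjusted p = 0.456). Kynureninase, KYNU, differed from No Storage by -0.19 in each stored group, and reached 0.014 in SCS and 0.004 in NEVKP without single arrays. The dim TDO2, the first enzyme of tryptophan breakdown, differed by 0.11 in SCS and -0.08 in NEVKP.

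Tyrosine enzymes were 2 of 4 measured. TAT (NCBI Gene ID 100511756), tyrosine aminotransferase, had 5.21, 4.50 and 4.64 in NEVKP, 5.17, 4.64 and 5.28 in SCS, and 5.18, 5.55 and 5.43 in No Storage. The groups overlapped, with differences of -0.36 in SCS (limma adjusted p = 0.495) and -0.61 in NEVKP (limma adjusted p = 0.474). HPD, the dioxygenase of the next step, spread widely, from 7.44 to 8.68 in NEVKP, from 6.70 to 8.44 in SCS and from 8.54 to 10.08 in No Storage.

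Enzymes of arginine, ornithine and proline were 6 of 7 measured, and they did not all lie on one side: 4 of 6 were negative in SCS and 5 of 6 in NEVKP. AGMAT (NCBI Gene ID 100519548), annotated as agmatinase, had 8.80, 8.26 and 9.10 in NEVKP, 7.95, 7.82 and 8.21 in SCS, and 9.32, 8.86 and 9.15 in No Storage. SCS was lowest, under every array of the other groups, at -1.12 from No Storage (SE 0.21, limma adjusted p = 0.0646), while NEVKP differed from No Storage by -0.39 (limma adjusted p = 0.622).

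OAT (NCBI Gene ID 100156865), the mitochondrial aminotransferase of ornithine, had 8.55, 9.10 and 8.51 in NEVKP, 8.16, 8.09 and 8.07 in SCS, and 8.68, 8.68 and 8.49 in No Storage. Again the SCS arrays were all below the rest, with a difference of -0.51 (limma adjusted p = 0.17), and NEVKP differed from No Storage by 0.10 (limma adjusted p = 0.902, and -0.09 without NEVKP replicate 2). The enzymes that make arginine, ASS1 and ASL, lay without overlap under No Storage in each stored group, at -0.81 and -0.46 in SCS and -0.55 and -0.72 in NEVKP. A second ASS1 probe set differed by -0.17 in SCS and -0.10 in NEVKP, so the probe sets of that gene disagree in size.

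ARG2, the mitochondrial arginase, averaged 7.61 ± 0.14 in NEVKP, 8.35 ± 0.20 in SCS and 8.00 ± 0.88 in No Storage (SD, n = 3), and the wide No Storage spread came from 9.01 in replicate 2, against 7.49 and 7.50 in the others. With that array ARG2 differed from No Storage by 0.35 in SCS and -0.39 in NEVKP, and without it by 0.85 and 0.12. The urea cycle enzyme OTC was dim and differed by 0.12 in SCS and -0.19 in NEVKP.

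Enzymes of sulfur amino acids were 2 of 3 measured. CTH (NCBI Gene ID 733654), which makes cysteine from cystathionine, had 9.42, 8.30 and 9.17 in NEVKP, 9.22, 8.52 and 9.48 in SCS, and 9.45, 10.18 and 9.61 in No Storage. NEVKP stayed just under the lowest No Storage array and SCS overlapped it, with differences of -0.68 in SCS (limma adjusted p = 0.36) and -0.78 in NEVKP (limma adjusted p = 0.531). CDO1, cysteine dioxygenase, shown because a single array sets its mean, had 5.62, 4.90 and 3.95 in NEVKP, 4.06, 4.05 and 4.37 in SCS, and 4.15, 8.05 and 4.34 in No Storage. The No Storage mean of 5.52 lay above both other No Storage arrays, and without replicate 2 the differences were -0.09 in SCS and 0.57 in NEVKP, against -1.36 and -0.70 with it.

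Branched-chain amino acid enzymes were 9 of 11 measured. For 7 of 9 the SCS arrays, and for 7 of 9 the NEVKP arrays, lay under all No Storage arrays, against 11.6% and 8.57% of all probe sets, with medians of -0.60 in SCS and -0.47 in NEVKP. BCKDHB (NCBI Gene ID 100142669), a subunit of the dehydrogenase that commits these amino acids to breakdown, had 7.96, 7.69 and 8.06 in NEVKP, 8.01, 7.82 and 8.13 in SCS, and 8.57, 8.69 and 8.49 in No Storage. The stored groups overlapped each other and lay under No Storage, at -0.60 in SCS (SE 0.14, limma adjusted p = 0.0999) and -0.68 in NEVKP (SE 0.14, limma adjusted p = 0.331).

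HIBADH (NCBI Gene ID 100516656), a dehydrogenase of valine breakdown, had 9.56, 9.32 and 9.60 in NEVKP, 9.18, 8.88 and 9.42 in SCS, and 9.85, 9.98 and 10.07 in No Storage. Neither stored group overlapped No Storage, with differences of -0.81 in SCS (SE 0.16, limma adjusted p = 0.0646) and -0.47 in NEVKP (limma adjusted p = 0.444). The partner subunit BCKDHA differed by -0.44 in SCS and -0.45 in NEVKP, IVD, the dehydrogenase of leucine breakdown, by -0.37 and -0.41, and the propionyl-CoA carboxylase subunits PCCA by -0.63 and -0.63 and PCCB by -0.89 and -0.57. HIBCH, the hydrolase before HIBADH, differed by -0.49 and -0.21. MCCC2, a carboxylase subunit of leucine breakdown, differed by -0.86 and -0.63, with an SCS array at 8.06 beside 9.24 and 9.81, and by -0.37 in SCS without that array. BCAT2, the mitochondrial aminotransferase that begins the pathway, was the exception, at 0.14 and 0.08.

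Enzymes of glutamate, glutamine and acylated amino acids were 3 of 5 measured. GLUD1 (NCBI Gene ID 100157162), the dehydrogenase that frees ammonia from glutamate, had 12.27, 11.44 and 11.67 in NEVKP, 11.75, 11.28 and 12.04 in SCS, and 12.01, 12.30 and 12.34 in No Storage. The groups overlapped, at -0.52 in SCS (limma adjusted p = 0.335) and -0.42 in NEVKP (limma adjusted p = 0.637). ASPA (NCBI Gene ID 100142661), which splits N-acetylaspartate, had 10.92, 10.59 and 10.61 in NEVKP, 10.34, 9.40 and 10.88 in SCS, and 11.09, 11.20 and 11.24 in No Storage. Every stored kidney was under every No Storage kidney, with differences of -0.97 in SCS (limma adjusted p = 0.162, and -0.57 without SCS replicate 2) and -0.47 in NEVKP (limma adjusted p = 0.668). GLUL, glutamine synthetase, differed by -0.35 in SCS and -0.02 in NEVKP.

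MIOX (NCBI Gene ID 397189) oxidises myo-inositol and is known as an enzyme of the proximal tubule, and it is listed with the amino acid enzymes although its substrate is a sugar alcohol. It had 10.26, 10.43 and 11.17 in NEVKP, 9.48, 9.38 and 9.87 in SCS, and 11.24, 10.62 and 10.87 in No Storage. All SCS arrays lay under all others, at -1.33 from No Storage (SE 0.25, limma adjusted p = 0.0646), a 2.52-fold lower level, and NEVKP differed from No Storage by -0.29 (limma adjusted p = 0.779). DPYS, dihydropyrimidinase of pyrimidine breakdown, had the widest spread within both stored groups, with 7.11 in replicate 2 of each and 8.57 to 10.25 in the other stored kidneys. Its differences of -1.06 in SCS and -1.21 in NEVKP were -0.22 and -0.44 without replicate 2 of the same group.

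**Figure D2:**
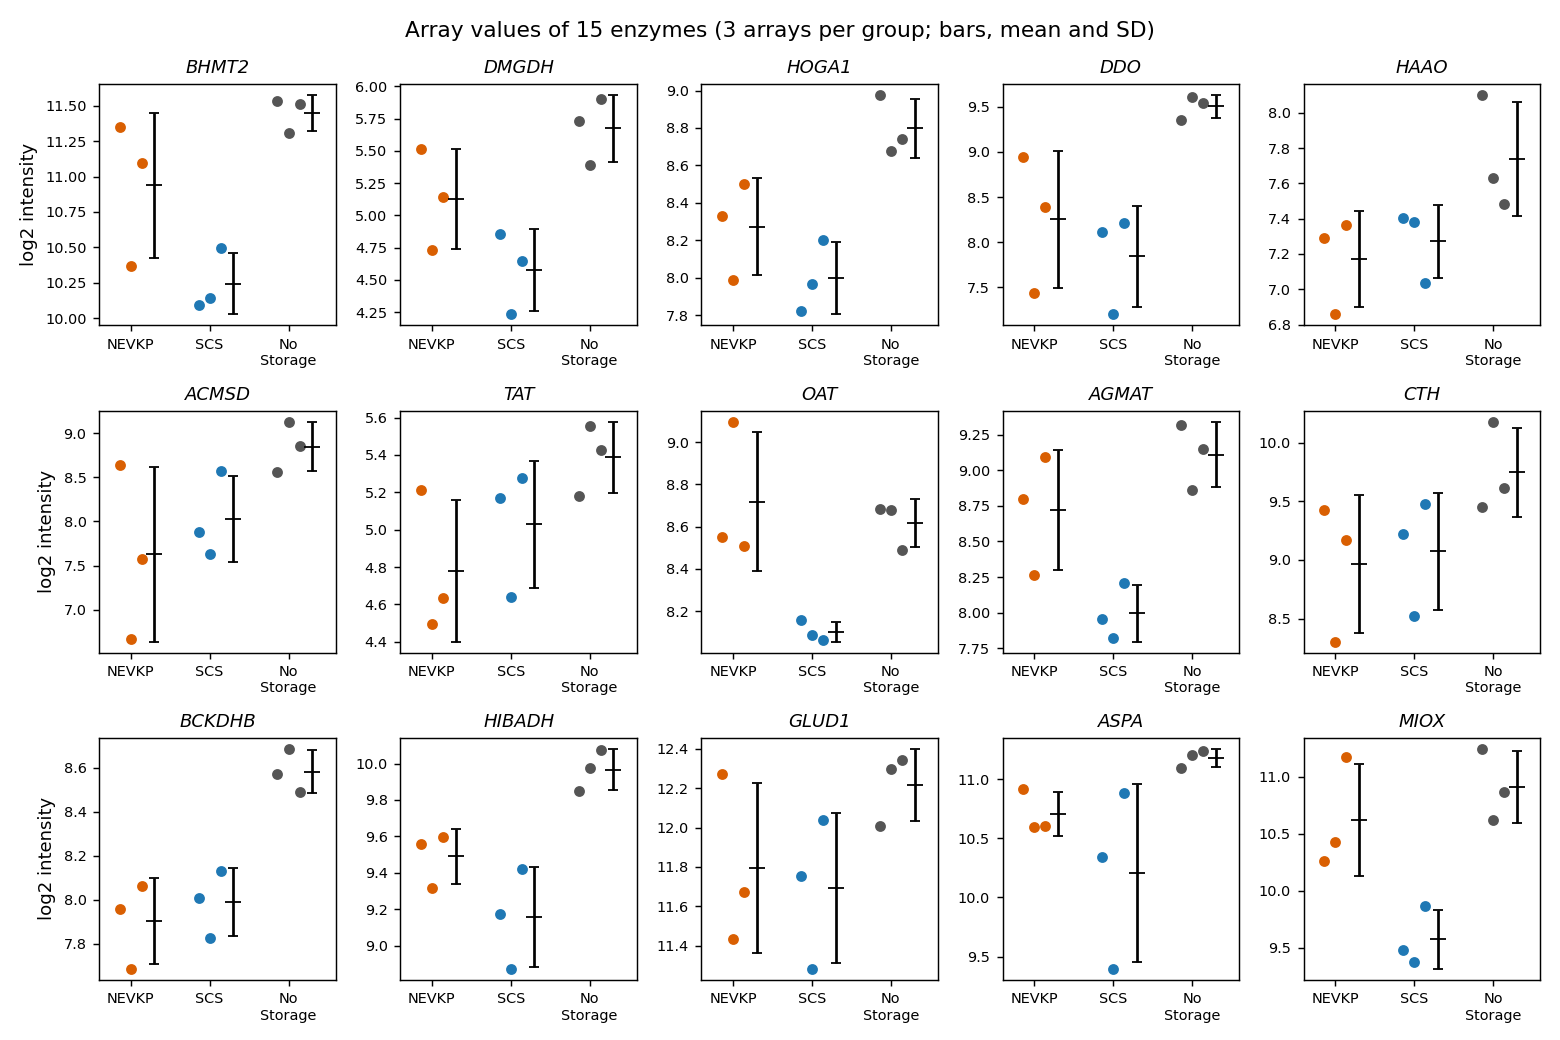
Log2 intensity (vertical axis, a separate scale per gene) of 15 enzymes in NEVKP, SCS and No Storage kidneys. Points are arrays and bars are the mean and SD (n = 3). SCS lies below all other arrays for OAT, AGMAT and MIOX, and the BCKDHB arrays of both stored groups lie below those of No Storage.

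NEVKP against SCS is the direct test of the difference between the ways of keeping the kidney for 8 h. The median over the 38 enzymes was 0.24, against -0.0045 over all named genes, and 23 of 38 differences were positive, against 46% of all probe sets, and 15 negative, against 54%. MIOX, SARDH, GATM, AGMAT, BHMT2, OAT, DMGDH and DAO were higher in NEVKP at an unadjusted p under 0.05, which is 8 of 38 against 3.8% of all probe sets, and OTC was lower, 1 of 38 against 3.7%. After adjustment 0 passed, as did 0% of all probe sets in either direction. The smallest adjusted p was 0.52.

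SARDH differed by 1.06 between NEVKP and SCS (SE 0.27, 95% interval 0.47 to 1.65, limma adjusted p = 0.52) and MIOX by 1.04 (SE 0.25, 95% interval 0.48 to 1.60, limma adjusted p = 0.52). OAT differed by 0.62 (95% interval 0.25 to 0.98) and AGMAT by 0.73 (95% interval 0.25 to 1.20). These 4 were the enzymes whose NEVKP arrays all lay above all SCS arrays, against 5.01% of probe sets. ARG2 and OTC were the 2 whose NEVKP arrays all lay below, which is 5.26% of the enzymes against 6.78% of probe sets, a share near the background. GATM differed by 0.76, BHMT2 by 0.69, DMGDH by 0.55 and DAO by 0.53, with overlapping arrays.

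For the branched-chain enzymes the NEVKP minus SCS median was 0.0060. The difference was 0.0060 for PCCA (95% interval -0.36 to 0.37), -0.0090 for BCKDHA (-0.31 to 0.29), -0.04 for IVD (-0.35 to 0.27) and -0.09 for BCKDHB (-0.40 to 0.23). AGXT differed by -0.02 (95% interval -0.41 to 0.38). The sign of each of these 5 differences turned in at least 1 setting with an array left out. The median was 0.69 for the betaine, sarcosine and creatine group, in which 5 of 5 were positive, and 0.31 for the glyoxylate and D-amino acid group. That these role groups differ from each other was not tested. Without NEVKP replicate 2 the count higher at an unadjusted p under 0.05 was 15, without SCS replicate 2 or either other NEVKP array it was 5, and the median of all enzymes was 0.03 without SCS replicate 2.

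**Figure D3:**
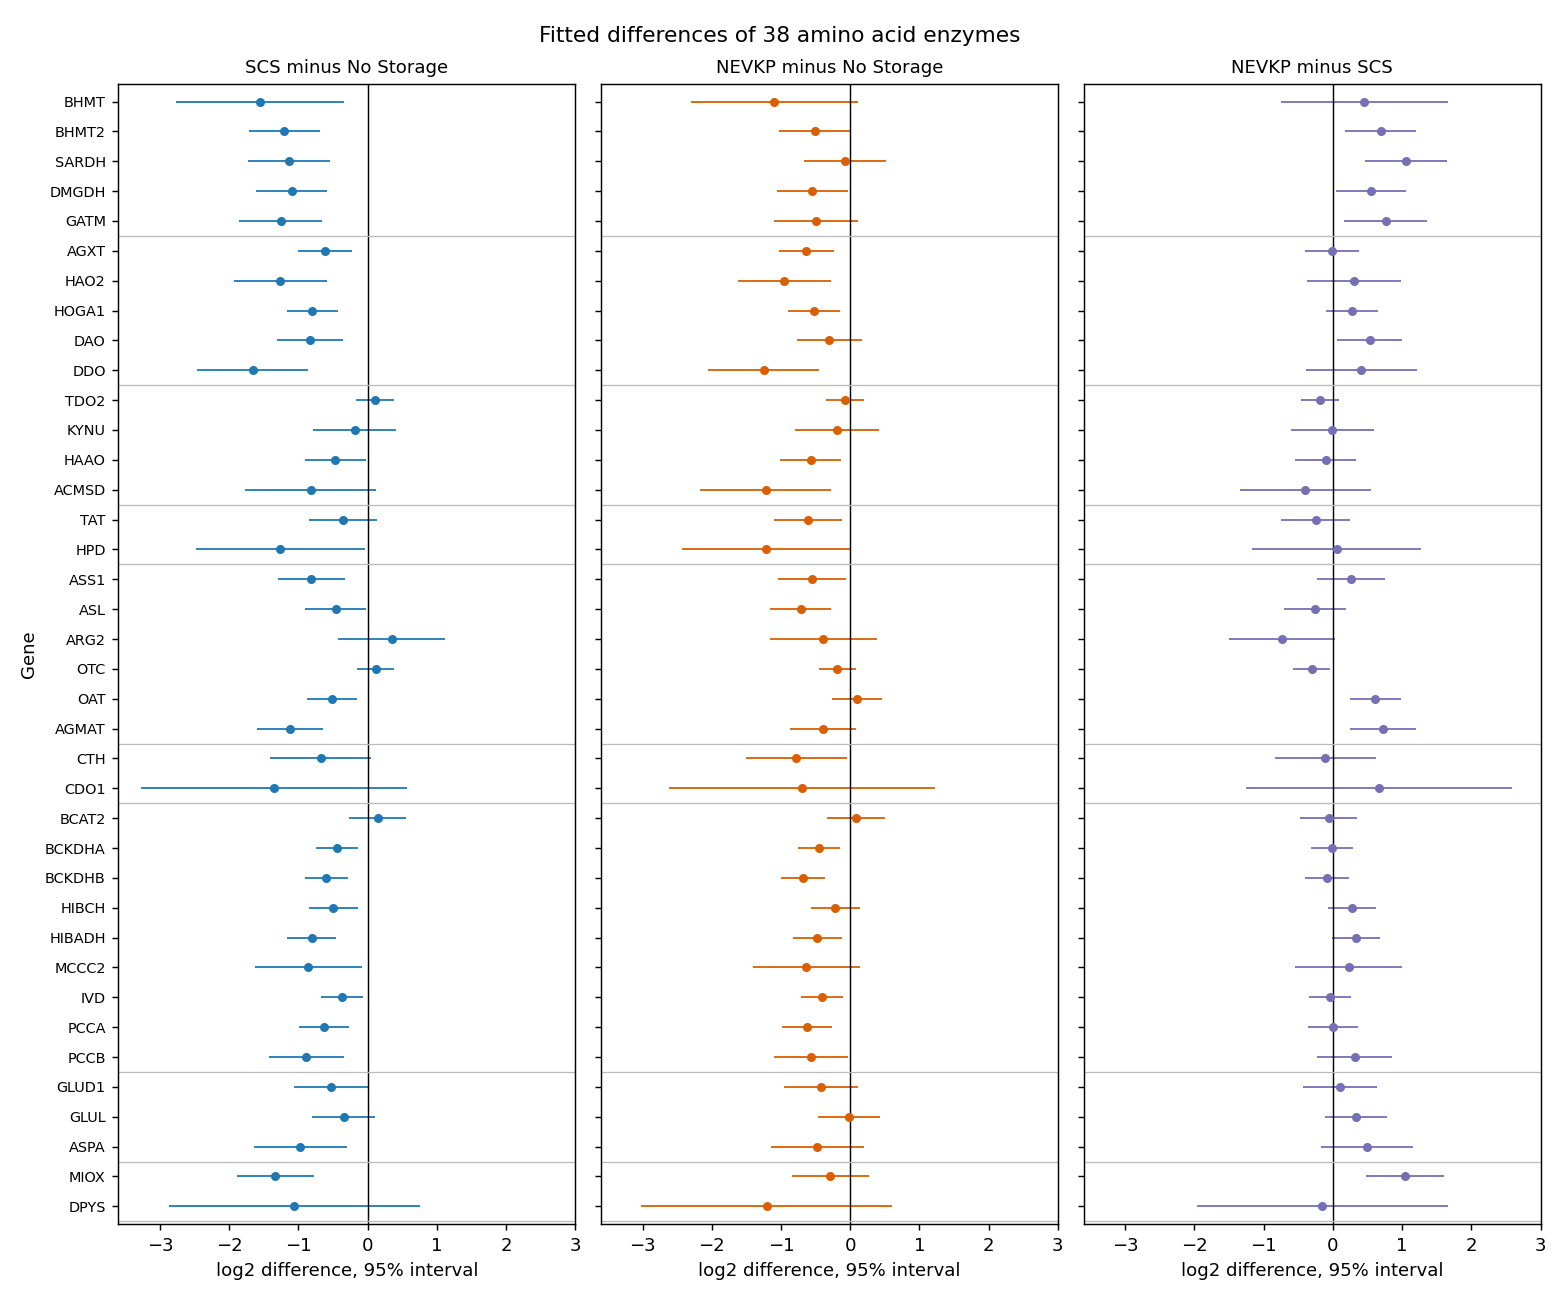
Fitted log2 difference (horizontal axis) of each of the 38 enzymes in 3 comparisons, with 95% intervals from limma that are not adjusted for the number of probe sets. Values left of 0 are lower in the group named first. Most points lie left of 0 in both panels against No Storage, and SARDH and MIOX lie farthest right in NEVKP minus SCS.

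In the F test among the groups 0 of 38 enzymes passed after adjustment, against 0.00523% of all probe sets, and 25 had an unadjusted p under 0.05, against 12.8%. The smallest adjusted p was 0.151, for MIOX.

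Single kidneys differed in how far the enzymes lay from the No Storage mean. The mean deviation over the 38 enzymes was -0.28, -0.85 and -0.46 in NEVKP replicates 1, 2 and 3, -0.70, -1.05 and -0.47 in SCS, and -0.08, 0.11 and -0.03 in No Storage. NEVKP replicate 2 was the lowest of its group for 29 of 38 enzymes, against 34.5% of all named genes, and SCS replicate 2 for 28 of 38, against 38.5%. These arrays also had the lowest array weights, 0.57 and 0.46. The median SD of an enzyme within a group was 0.373 in NEVKP, 0.253 in SCS and 0.159 in No Storage, against 0.182, 0.193 and 0.148 over all probe sets.

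Of 120 other enzymes of amino acid metabolism, 79 were measured. In SCS against No Storage 34 (43%) were lower and 0 higher at an unadjusted p under 0.05, against 7.79% and 7.75% of all probe sets, with a median of -0.32, and 0 passed over all probe sets in limma. Those with the smallest p were MTR, methionine synthase (-1.45, limma adjusted p = 0.0519), ASPDH (-0.96), NIT2 (-0.83), PSAT1, an enzyme of serine synthesis (-0.99), and ALDH6A1, the dehydrogenase that follows HIBADH in valine breakdown (-1.23). In NEVKP against No Storage 18 (22.8%) were lower and 0 higher, against 4.4% and 4.67% of all probe sets, with a median of -0.23, and GCDH (-0.63), ASPDH (-0.68), CHDH, which starts betaine synthesis from choline (-0.60), PHGDH, the first enzyme of serine synthesis (-0.78), and CNDP1 (-0.96) had the smallest p. In NEVKP against SCS 3 (3.8%) were higher and 2 (2.53%) lower, against 3.8% and 3.7% of all probe sets, shares near the background, and 0 passed after adjustment. The 5 of smallest p there were MTR (1.03), GCLC (-0.81), AADAT (1.43), PSAT1 (0.54) and IL4I1 (-0.31).

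Means of several lists of tubule segment and other cell markers also lay apart between the groups. No list was tested as a set, and 0 genes of any of the 10 lists passed after adjustment in limma. The proximal tubule markers averaged 8.94 to 9.66 per array in NEVKP, 9.09 to 9.59 in SCS and 9.76 to 9.83 in No Storage, with 8 of 20 lower and 2 higher in SCS, and 5 lower and 0 higher in NEVKP, against No Storage at an unadjusted p under 0.05. Over all probe sets 7.79% were lower and 7.75% higher in SCS, and 4.4% and 4.67% in NEVKP. The medians of the proximal tubule markers were -0.62 in SCS and -0.51 in NEVKP. Collecting duct markers, which do not belong to the proximal tubule, also lay lower, at 7.74 to 7.84 in NEVKP, 7.30 to 7.78 in SCS and 8.19 to 8.29 in No Storage, with 5 of 9 lower in each. Markers of the thick ascending limb and distal tubule had medians of -0.64 in SCS and 0.11 in NEVKP, with 3 of 6 lower in SCS and 0 in NEVKP. In NEVKP minus SCS their median was 0.86, with 4 of 6 higher and 0 lower at an unadjusted p under 0.05, against 3.8% and 3.7% of all probe sets. There the proximal tubule markers had a median of 0.01 (1 of 20 higher, 2 lower), collecting duct markers 0.0010 (1 of 9 higher, 0 lower) and injured tubule markers -0.41 (0 of 7 higher, 2 lower).

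Stroma and fibroblast markers averaged 10.34 to 10.74 in NEVKP, 10.45 to 10.69 in SCS and 9.83 to 9.93 in No Storage. Of these, 6 of 8 were higher in each stored group at an unadjusted p under 0.05. Of all probe sets 7.75% were higher in SCS and 4.67% in NEVKP, which holds for the counts below as well. Injured tubule markers averaged 7.61 to 8.22 in NEVKP, 7.94 to 8.35 in SCS and 7.30 to 7.51 in No Storage, with 2 of 7 and 5 of 7 higher. The 2 were VCAM1 and CD44, and the 5 in SCS were these with KRT8, KRT18 and SOX9. HAVCR1 was dim, at 2.53, and differed by -0.06 in SCS and -0.05 in NEVKP. LCN2 differed by 0.54 and 0.24, with an unadjusted limma p of 0.171 and 0.526. Macrophage and monocyte markers averaged 6.94 to 7.33, 6.52 to 7.25 and 6.61 to 6.68 in NEVKP, SCS and No Storage, with 4 of 7 higher in NEVKP and 1 of 7 in SCS. For T and NK cells the ranges were 5.30 to 5.34, 5.11 to 5.19 and 4.90 to 5.14, with 2 of 8 higher in NEVKP and 0 in SCS. Endothelial markers spanned 7.45 to 8.30, 7.68 to 8.13 and 7.99 to 8.16, podocyte markers 6.27 to 6.81, 6.19 to 6.66 and 6.63 to 6.91, and hepatocyte markers 5.16 to 5.41, 5.19 to 6.10 and 5.46 to 5.77, in the same order of groups. In SCS 1 of 4 endothelial markers was lower, and in NEVKP 0. Podocyte markers had 0 of 3 in either. Hepatocyte markers went both ways in SCS, with 2 of 7 lower and 1 higher, and had 2 lower and 0 higher in NEVKP. Of all probe sets 7.79% were lower in SCS and 4.4% in NEVKP. The part of these shifts in the enzyme differences was not tested.

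**Figure D4:**
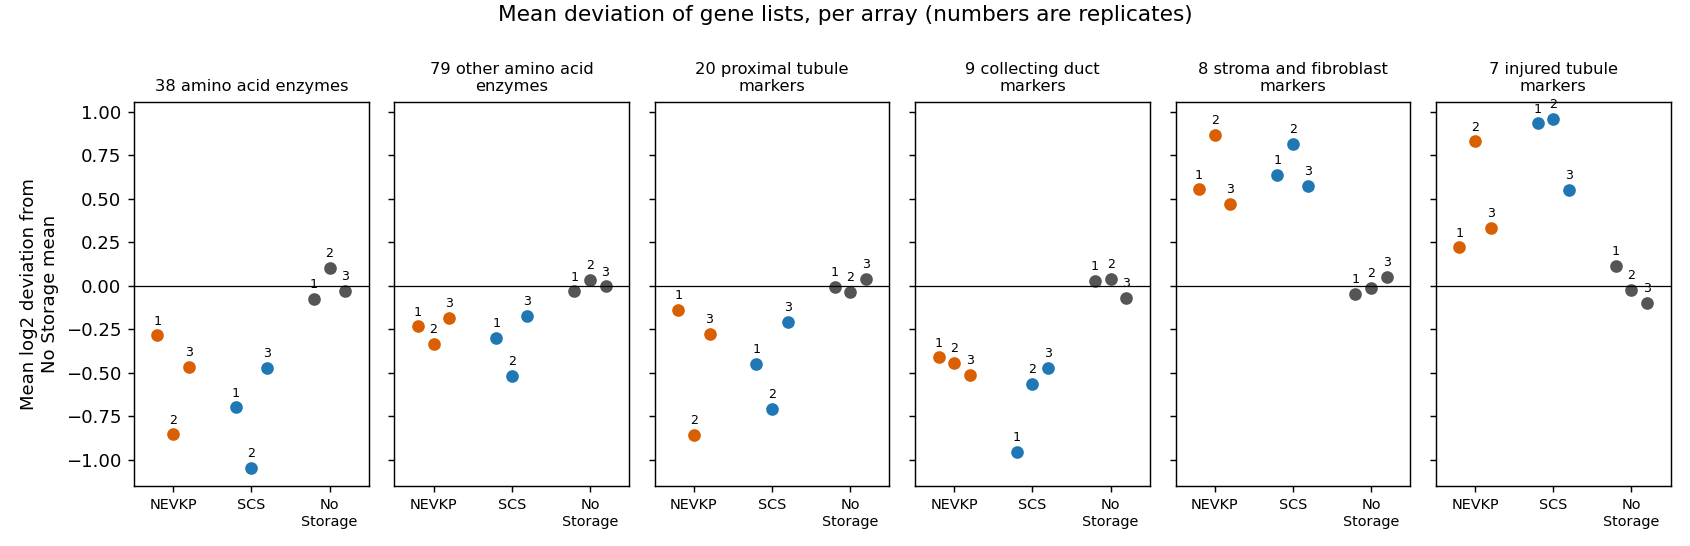
Mean log2 deviation from the No Storage mean (vertical axis) of 6 gene lists in each array, by group, with replicate numbers beside the points. Enzymes and markers of the proximal tubule and collecting duct lie below 0 in all 6 stored kidneys, and stroma and injured tubule markers above 0.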

How the data were processed

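Log2 intensities of 19124 probe sets on 9 arrays were analysed as deposited. RMA, which adjusts background, normalizes between arrays and summarizes probes, was used by the authors to make these log2 values, per the submitters' processing notes, which also list limma 3.34.14. Array scans were not used here. No source used here gives a genome build or a filter. Symbols came from the platform annotation, which gave exactly 1 symbol to 13323 probe sets, several to 357 and none to 5444. For all 38 measured enzymes the symbol matched that of the same NCBI Gene ID in RefSeq's pig gene table (Sscrofa11.1).

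Linear models were fitted in limma 3.58.1 (run in R 4.3.3, with the default eBayes prior) to every probe set on all arrays, with group as the one term (6 residual and 4.12 prior degrees of freedom). Two-sided p values were Benjamini-Hochberg adjusted across all probe sets in each comparison, and the threshold was 0.05. Each array is of another animal per the series' design text, so arrays were taken as independent samples, and their number limits the precision. The steps were tested on simulated data.

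The enzymes, their role groups and the marker lists were chosen with earlier results of these data known. By a rule, array values were given for enzymes past the threshold and for the 2 of each role group with the smallest p of the F test (1 in groups with 2 or fewer measured), 15 in all, the 8 brightest enzymes were named by mean, and the 5 other amino acid enzymes of smallest p were named per comparison. CDO1, HPD, ARG2, DPYS and MCCC2 were given with some or all of their array values after these were seen. Alternatives were the replicate number as a block, array weights, a prior both trended and robust, a filter on the dimmest 25%, centred arrays, averaged probe sets of a gene, fits of the compared groups by themselves, and each array left out in turn. Omission of SCS replicate 2 and NEVKP replicate 2 together was chosen after seeing the data. So were the counts at an unadjusted p and without overlap, and the alternatives for the 23 enzymes that the rule did not pick.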

Additional observations from a re-analysis of the deposited data

Results flagged for a closer look

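ARG2 and OTC were singled out because all 3 NEVKP arrays lay below the No Storage mean and all 3 SCS arrays above it. The share of all probe sets with that pattern was not counted. All NEVKP arrays lay below all SCS arrays for 5.26% of the enzymes and 6.78% of all probe sets, so that count was near the background. The NEVKP minus SCS difference was -0.73 for ARG2 (SE 0.35, limma adjusted p = 0.677, lower in 3 of 3 NEVKP arrays) and -0.31 for OTC (SE 0.12, limma adjusted p = 0.648, lower in 3 of 3 NEVKP arrays), so neither passed in the test of the difference itself. The No Storage mean of ARG2 includes 9.01 in replicate 2, and without that array the difference from No Storage was 0.12 in NEVKP and 0.85 in SCS, both positive. OTC was dim in all groups, with means of 2.63 in NEVKP, 2.94 in SCS and 2.82 in No Storage.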

How the results depend on the processing

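In SCS against No Storage the count of enzymes past the threshold was 0 and became 1 with the replicate number as a block (DMGDH), 2 with array weights (BHMT2 and AGMAT), 1 in the compared groups alone (BHMT2), and 0 to 8 when single arrays were left out. The 8, without NEVKP replicate 2, were BHMT2, DMGDH, GATM, HAO2, HOGA1, DDO, ASS1 and AGMAT, and the 2 without SCS replicate 3 were DAO and HIBADH. The median was -0.91 to -0.55 with single arrays left out and -0.55 without SCS replicate 2 and NEVKP replicate 2 together. The unadjusted count stayed at 20 to 29 lower, with 0 to 1 higher. The share of all probe sets was not counted when the models were refitted in these alternatives. The other amino acid enzymes past the threshold numbered 1 with the trended prior, array weights, the dimmest left out, centred arrays and the compared groups alone, and 0 to 4 without single arrays. In NEVKP against No Storage 0 passed in every alternative run, and the unadjusted count was 9 to 23 without single arrays. In NEVKP against SCS 0 passed in every alternative run. The count lower at an unadjusted p was 0 with the dimmest left out, 2 in the compared groups alone, 0 without both arrays, and 0 to 2 without single arrays. The count higher was 5 to 15 and the median 0.03 to 0.37 without single arrays. The count lower without overlap was 2 to 5 without single arrays, but leaving an array out can only keep or raise it. With the dimmest left out, which removes OTC, the count lower without overlap was 1. Of 114 differences of the 38 enzymes, 90 kept their sign in every setting. The other 24 had these ranges without single arrays. In SCS minus No Storage the range was -0.48 to 0.014 for KYNU. In NEVKP minus No Storage it was -0.389 to 0.182 for SARDH, -0.143 to 0.008 for TDO2, -0.412 to 0.004 for KYNU, -0.645 to 0.119 for ARG2, -0.088 to 0.206 for OAT, -1.375 to 0.573 for CDO1, -0.132 to 0.232 for BCAT2 and -0.145 to 0.204 for GLUL. In NEVKP minus SCS it was -0.003 to 1.123 for BHMT, -0.126 to 0.198 for AGXT, -0.205 to 0.289 for KYNU, -0.223 to 0.053 for HAAO, -0.908 to 0.081 for ACMSD, -0.5 to 0.373 for HPD, -0.384 to 0.224 for CTH, -0.275 to 0.088 for BCAT2, -0.054 to 0.024 for BCKDHA, -0.169 to 0.022 for BCKDHB, -0.263 to 0.613 for MCCC2, -0.106 to 0.077 for IVD, -0.154 to 0.154 for PCCA, -0.137 to 0.281 for GLUD1 and -0.994 to 0.615 for DPYS. Without SCS replicate 2 and NEVKP replicate 2 together the sign also turned in SCS minus No Storage for KYNU (0.014), in NEVKP minus No Storage for SARDH (0.079), TDO2 (0.008), OAT (-0.088) and BCAT2 (-0.132), and in NEVKP minus SCS for AGXT (0.184), HAAO (0.107), HPD (-0.298), BCKDHA (0.002), MCCC2 (-0.272) and PCCA (-0.095). With array weights it turned for BCAT2 in NEVKP minus No Storage (-0.021) and, in NEVKP minus SCS, for AGXT (0.057), HPD (-0.229), BCKDHA (0.0 after rounding), MCCC2 (-0.026) and PCCA (-0.043), and with centred arrays for PCCA (-0.002). The cause was not tested. Same-numbered arrays of different groups had deviations that correlated at -0.14 to 0.13, and differently numbered ones at -0.15 to 0.17. These values show no pairing by replicate number, but with 3 arrays per group they cannot exclude one. With the number as a block the counts past the threshold were 1, 0 and 0. With 3 animals per group precision is limited, and TDO2 and OTC were dim.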
